A study of Mus musculus with 12 samples.

Results

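The insulin-like growth factor (IGF) system was described here by 10 genes, chosen by gene symbol from the 17536 genes of the deposited values. They were the ligand genes Igf1 and Igf2, the receptor genes Igf1r and Igf2r, and the binding protein genes Igfbp2, Igfbp3, Igfbp4, Igfbp5, Igfbp6 and Igfbp7, and all 10 were present. RNA-seq was performed on chondrocytes of the superficial zone (SFZ) and the deep zone (DZ) of epiphyseal cartilage of 5-day-old C57BL/6J mice. Every mouse was Runx3 fl/fl. R3-Cntl mice had no further allele, and R3-cKO mice also carried Col2a1-Cre, which is active in cells that express or have expressed the cartilage collagen gene Col2a1. Each of the 4 groups (R3-Cntl SFZ, R3-cKO SFZ, R3-Cntl DZ and R3-cKO DZ) held 3 libraries from littermate mice. According to the methods of the study, SFZ cells were released by a first digestion of the cartilage, DZ cells by a further digestion of what was left, and dissociated cells were kept as monolayers.

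IGF-1 and IGF-2 are secreted growth factors that signal through the tyrosine kinase receptor encoded by Igf1r, mainly through PI3K, Akt and mTOR. The receptor encoded by Igf2r binds IGF-2 and carries it to lysosomes without such signalling, and most IGF outside cells is held by IGF binding proteins, which proteases such as PAPP-A cut. In cartilage the system is known for driving chondrocyte growth and matrix production, and Igf2 is an imprinted fetal growth gene.

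The deposited values are taken here as FPKM scaled between libraries, a unit that was inferred from the values. FPKM are fragments mapped to a gene divided by the length of its transcript and by the depth of the library. If that unit holds, levels of different genes can be set side by side per transcript length. The values summed to between 392241 and 429213 per library, and libraries of a group correlated at 0.96 to 0.988. The cartilage collagen gene Col2a1 was between 3048.74 and 22790.57 FPKM in all 12 libraries. Runx3 itself was not lower in the libraries labelled R3-cKO: it lay between 5.98 and 10.73 FPKM in R3-Cntl SFZ, between 3.42 and 11.83 in R3-cKO SFZ, between 7.66 and 12.67 in R3-Cntl DZ and between 8.14 and 15.95 in R3-cKO DZ. A whole-gene value need not fall when only a floxed part is removed. Whether that part was lost in these cells was not tested, so the genotype is given below as a label.

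In the mm9 genome the members lie on 7 chromosomes. Igfbp2 (chr1:72871077-72899048, plus strand) and Igfbp5 (chr1:72904506-72921458, minus strand) are neighbours that point towards each other, with 5457 bases between them. Igf1 lies at chr10:87321010-87399792 on the plus strand, and Igf2 at chr7:149836673-149852721 on the minus strand. Igf1r (chr7:75097713-75371484, plus strand) shares that chromosome, and Igf2r lies at chr17:12875272-12962530 on the minus strand. Igfbp3 (chr11:7106089-7113926, minus strand) and Igfbp4 (chr11:98902558-98913969, plus strand) are on the same chromosome but far apart. Igfbp6 lies at chr15:101974793-101979942 on the plus strand and Igfbp7 at chr5:77778265-77837070 on the minus strand. On the opposite strand, Igf1 overlaps Gm16176, Igf2 overlaps Igf2as, Igf2r overlaps Airn and Igfbp7 overlaps Polr2b. Whether reads were counted by strand is not given in the sources used here, so reads of these partners cannot be told apart from those of the members.

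The promoters are shown because Runx3 is the gene that was targeted and Runx factors recognize the letters TGTGGT or TGCGGT. These letters were sought on both strands in the 250 bases before each start in the RefSeq promoter table (GRCm38.p6), placed on mm9 by exact match. They stood in 2 of 14 promoters, and in 2 of the 10 members, against 18.6% of 32851 RefSeq promoters of that length. A match of this kind is a description of letters and not a binding site. The following lines give the promoter of Igf2 that holds a match (chr7:149847211-149847426, minus strand, 216 bases, ending before the annotated exon) and the promoter of Igfbp3 (chr11:7113927-7114176, minus strand, 250 bases), 5′ to 3′, with the match in capitals. The match begins 102 bases before the RefSeq start in Igf2, where TGCGGT is on the reverse strand and reads ACCGCA, and 223 bases before it in Igfbp3.
Igf2: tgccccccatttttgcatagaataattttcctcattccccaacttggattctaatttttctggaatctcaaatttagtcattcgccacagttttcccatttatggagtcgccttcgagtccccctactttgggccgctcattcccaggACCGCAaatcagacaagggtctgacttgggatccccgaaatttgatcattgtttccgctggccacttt
Igfbp3: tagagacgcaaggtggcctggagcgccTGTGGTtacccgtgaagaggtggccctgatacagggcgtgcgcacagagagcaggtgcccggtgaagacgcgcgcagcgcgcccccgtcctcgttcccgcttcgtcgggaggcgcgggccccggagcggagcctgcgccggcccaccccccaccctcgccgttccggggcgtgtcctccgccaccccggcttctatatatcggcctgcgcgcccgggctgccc

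Igf2 had the highest level of the 10 genes in each of the 12 libraries. It ranked between 3 and 18 among all 17536 genes of a library and held 0.366 to 1.3% of the summed FPKM. In R3-Cntl SFZ cells the order of mean FPKM was Igf2 (2422), Igfbp5 (642), Igfbp4 (396), Igfbp7 (170), Igfbp2 (152), Igf2r (58.9), Igfbp6 (29.8), Igfbp3 (21.6), Igf1 (12.6) and Igf1r (8.46). Neighbours in this order overlapped between libraries except at 3 steps, from Igf2 to Igfbp5, from Igfbp4 to Igfbp7 and from Igf2r to Igfbp6. In R3-Cntl DZ cells the order was Igf2 (4613), Igfbp5 (431), Igfbp4 (232), Igfbp7 (213), Igf2r (80.3), Igfbp2 (12.8), Igf1r (6.21), Igfbp6 (5.71), Igfbp3 (1.22) and Igf1 (0.557). Here Igf2 and Igfbp5, Igfbp7 and Igf2r, Igf2r and Igfbp2, and Igfbp6 and Igfbp3 were the neighbours whose libraries did not overlap. By mean, Igfbp2 stood above Igf2r in SFZ cells, where their ranges overlapped, and below it in DZ cells, where they did not.

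**Figure D1:**
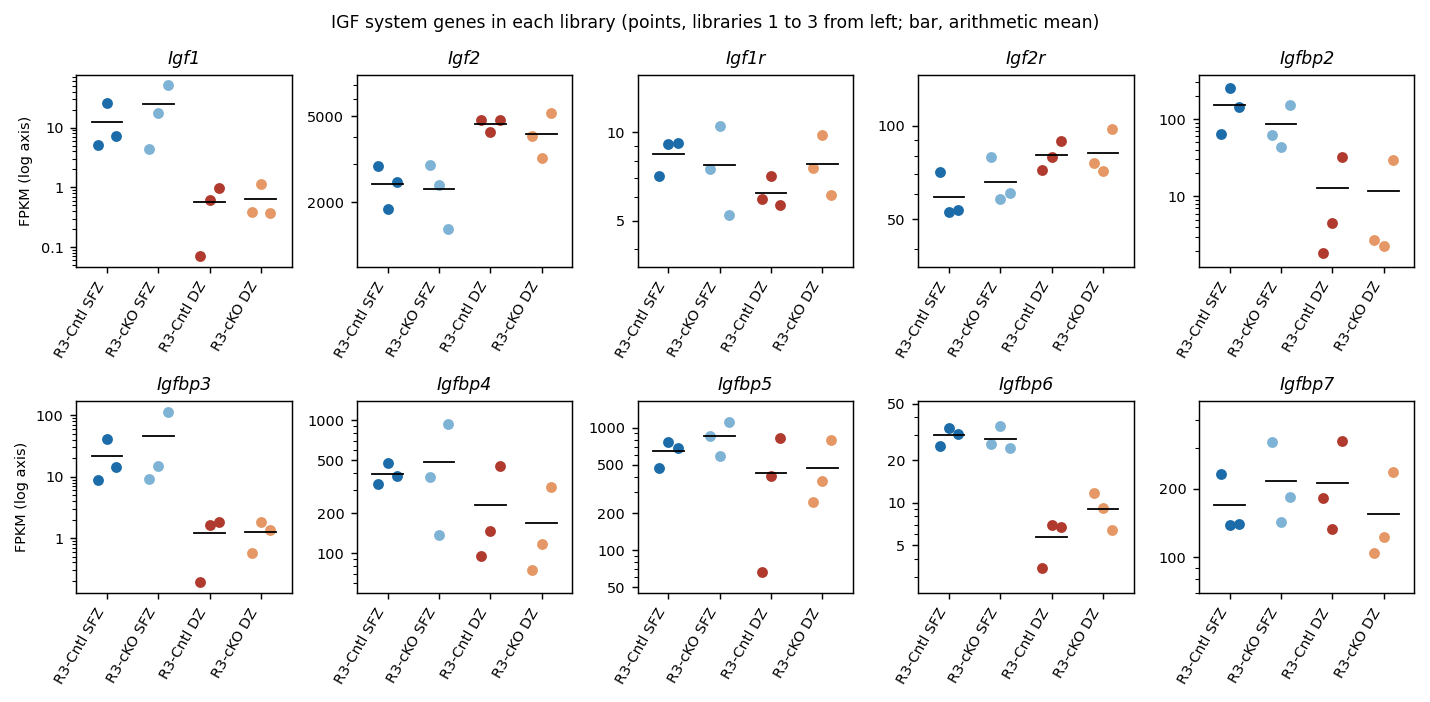
FPKM of the 10 IGF system genes in each of the 12 libraries, on a log axis that differs between panels, by group. Points are libraries and bars are arithmetic means of 3. In Igf1, Igfbp2, Igfbp3 and Igfbp6 all 6 SFZ libraries lie above all 6 DZ libraries, in Igf2 all 6 lie below, and R3-Cntl and R3-cKO points overlap in every gene and zone.

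The first comparison asked where in the depth of neonatal cartilage the IGF genes are expressed, with DZ set against SFZ over all 12 libraries and genotype as a term. The ligands were opposed: Igf2 was 1.89-fold higher in DZ cells and Igf1 was 8.88-fold lower, and the receptor Igf2r was 1.30-fold higher. Of the binding proteins, Igfbp2 was 13.0-fold, Igfbp3 10.4-fold and Igfbp6 3.73-fold lower in DZ cells. Igf1r, Igfbp4, Igfbp5 and Igfbp7 did not pass the test. Folds and log2 differences are of log2(FPKM + 1), so that changes of genes with low levels come out too small, and a gene was called at an adjusted p under 0.05 in limma over all 11765 genes tested. With a pseudocount of 0.1 or 5 in place of 1, the log2 difference was −4.44 or −1.75 for Igf1, −4.25 or −2.14 for Igfbp3 and −3.98 or −3.01 for Igfbp2, and the same 6 members were called. Of the 10 members 6 were called, 2 higher and 4 lower, against 23.2% of all genes tested, of which 506 (4.3% of those tested) were higher and 2219 (18.9%) lower. The median log2 difference was −1.15 over the members and −0.14 over all genes.

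Igf2, the fetal growth factor, was at 2936.33, 1854.56 and 2474.54 FPKM in the R3-Cntl SFZ libraries and at 2986.96, 2400.97 and 1510.24 in the R3-cKO SFZ libraries. DZ libraries held 4810.84, 4238.17 and 4788.93 in R3-Cntl and 4068.83, 3210.93 and 5198.51 in R3-cKO. Every DZ library lay above every SFZ library, and the means were 4386 ± 708 and 2361 ± 586 FPKM (SD, n = 6). Such a separation was found for 11.3% of all genes, with DZ higher in 1.64% and lower in 9.71%. The log2 difference was 0.92 ± 0.19 (SE, adjusted p = 0.00753 in limma), and the exact two-sided permutation test gave p = 0.00216, the smallest possible for 6 against 6. With no filter on low values the call of Igf2 was lost (adjusted p = 0.0715 in limma). A rise by more than 0.9 was found for 1.53% of genes.

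Igf1, the ligand whose synthesis growth hormone controls in many tissues, was at 5.05, 25.37 and 7.25 FPKM in R3-Cntl SFZ and at 4.34, 17.56 and 51.46 in R3-cKO SFZ. In DZ cells it was at 0.07, 0.62 and 0.98 in R3-Cntl and at 0.39, 1.14 and 0.37 in R3-cKO. The zones did not overlap, and only 1 of 6 DZ libraries reached 1 FPKM. SFZ libraries differed among themselves by more than 10-fold, with R3-Cntl library 2 and R3-cKO library 3 highest. The log2 difference was −3.15 ± 0.51 (SE, adjusted p = 0.00271 in limma, exact permutation p = 0.00216). Igf1 passed the filter on low values through the SFZ libraries, where it was high, so its call is not independent of the filter. Apart from Igf1, 5 members were called. With no filter Igf1 was still called (adjusted p = 0.00469 in limma). Igf2 exceeded Igf1 29.3 to 688-fold in SFZ and 2820 to 68700-fold in DZ libraries, where the Igf1 values are too low for a precise ratio.

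Among the receptors, Igf2r was at 70.79, 52.58 and 53.44 FPKM in R3-Cntl SFZ and at 79.38, 57.81 and 60.50 in R3-cKO SFZ. The DZ levels were 72.04, 79.42 and 89.35 in R3-Cntl and 75.66, 71.46 and 97.53 in R3-cKO. The zones overlapped, through R3-cKO SFZ library 1, and R3-Cntl SFZ library 1 lay just below the lowest DZ library. The log2 difference was 0.38 ± 0.12 (SE, adjusted p = 0.0419 in limma, exact permutation p = 0.0152). This call was near the threshold: it was lost with no filter on low values (adjusted p = 0.0516) and on leaving out any 1 of 9 of the 12 libraries (adjusted p = 0.0546 to 0.102). With the replicate number as a block it was lost as well (adjusted p = 0.0503 in limma), though the numbers were not shown to pair the zones in R3-Cntl. The call was kept without R3-Cntl SFZ library 1, R3-cKO SFZ library 1 or R3-cKO DZ library 2.

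Igf1r, the signalling receptor, was the lowest of the 10 genes in SFZ cells by mean. It was at 7.07, 9.09 and 9.21 FPKM in R3-Cntl SFZ and at 7.51, 10.47 and 5.23 in R3-cKO SFZ. In DZ cells the values were 5.92, 7.08 and 5.64 in R3-Cntl and 7.58, 9.79 and 6.10 in R3-cKO. The zones overlapped, and the log2 difference was −0.18 with a 95% interval of −0.53 to 0.18 (adjusted p = 0.465 in limma). Its sign turned with quantile normalization (0.02). Within a library Igf2r was 5.52 to 11.6-fold above Igf1r in SFZ and 7.30 to 16.0-fold above it in DZ cells.

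Igfbp2, the product of which binds IGF-2 more tightly than IGF-1, was at 64.65, 250.23 and 141.08 FPKM in R3-Cntl SFZ and at 61.59, 43.10 and 150.55 in R3-cKO SFZ. In DZ cells it was at 1.85, 4.58 and 31.85 in R3-Cntl and at 2.76, 2.28 and 29.84 in R3-cKO. All SFZ libraries lay above all DZ libraries, and DZ library 3 of both genotypes lay well above the other DZ libraries. Between zones it differed by −3.71 ± 0.71 on the log2 scale (SE, adjusted p = 0.00542 in limma, exact permutation p = 0.00216).

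Igfbp3, the main carrier of IGF in blood, was at 8.69, 41.64 and 14.49 FPKM in R3-Cntl SFZ and at 9.13, 15.12 and 115.03 in R3-cKO SFZ. Its DZ values were 0.19, 1.63 and 1.85 in R3-Cntl and 0.57, 1.83 and 1.35 in R3-cKO. The zones were apart, and the 2 highest SFZ libraries were those with the most Igf1. Its log2 difference was −3.39 ± 0.57 (SE, adjusted p = 0.00294 in limma, exact permutation p = 0.00216).

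Igfbp6, which strongly prefers IGF-2, was at 25.21, 33.55 and 30.75 FPKM in R3-Cntl SFZ and at 25.84, 34.90 and 24.29 in R3-cKO SFZ. It fell to 3.45, 6.99 and 6.70 in R3-Cntl DZ and to 11.68, 9.13 and 6.43 in R3-cKO DZ libraries. The lowest SFZ library was above the highest DZ library, and the means were 5.71 ± 1.97 and 9.08 ± 2.63 FPKM in R3-Cntl and R3-cKO DZ cells against 29.8 ± 4.24 and 28.3 ± 5.73 in SFZ cells (SD, n = 3). The log2 difference was −1.90 ± 0.20 (SE, adjusted p = 0.000415 in limma, exact permutation p = 0.00216), the lowest adjusted p of the 10 members. A fall by more than 1.8 was found for 1.06% of genes.

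Igfbp4, an IGF-binding protein that PAPP-A cuts, was at 331.87, 475.66 and 379.70 FPKM in R3-Cntl SFZ and at 373.13, 137.63 and 929.75 in R3-cKO SFZ. In DZ cells it was at 95.85, 147.27 and 452.28 in R3-Cntl and at 75.14, 116.47 and 311.62 in R3-cKO. The zones overlapped through R3-cKO SFZ library 2 and the DZ libraries numbered 3. The log2 difference was −1.22 with a 95% interval of −2.34 to −0.10, and it did not pass the adjusted threshold (adjusted p = 0.106 in limma). It passed without R3-cKO SFZ library 2 (adjusted p = 0.0444) or without R3-Cntl DZ library 3 (0.0467). With the replicate number as a block it passed too (adjusted p = 0.0282 in limma). That block also pairs R3-Cntl libraries across the zones, where same-number correlations of −0.151 to 0.575 do not show the numbers to be pairs.

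Igfbp5, a binding protein held by matrix, was the second member after Igf2 by mean in all 4 groups. It was at 471.41, 764.44 and 690.57 FPKM in R3-Cntl SFZ and at 865.89, 585.48 and 1109.76 in R3-cKO SFZ. DZ values ran to 66.91, 400.80 and 826.18 in R3-Cntl and to 249.01, 365.13 and 790.13 in R3-cKO. DZ libraries were spread more than 10-fold and DZ library 3 of both genotypes lay inside the SFZ range. For Igfbp5 the log2 difference was −1.07 with a 95% interval of −2.21 to 0.07 (adjusted p = 0.157 in limma), and it was −0.61 without R3-Cntl DZ library 1.

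Igfbp7, a relative that binds IGFs with low affinity, was at 231.02, 138.35 and 140.32 FPKM in R3-Cntl SFZ and at 320.19, 143.07 and 183.60 in R3-cKO SFZ. In DZ cells it was at 182.01, 132.68 and 323.48 in R3-Cntl and at 104.50, 123.25 and 235.74 in R3-cKO. The zones overlapped widely, and the log2 difference was −0.11 with a 95% interval of −0.78 to 0.56 (adjusted p = 0.820 in limma). Its sign turned with median-of-ratios size factors (0.05) and in R3-Cntl libraries alone (0.27).

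**Figure D2:**
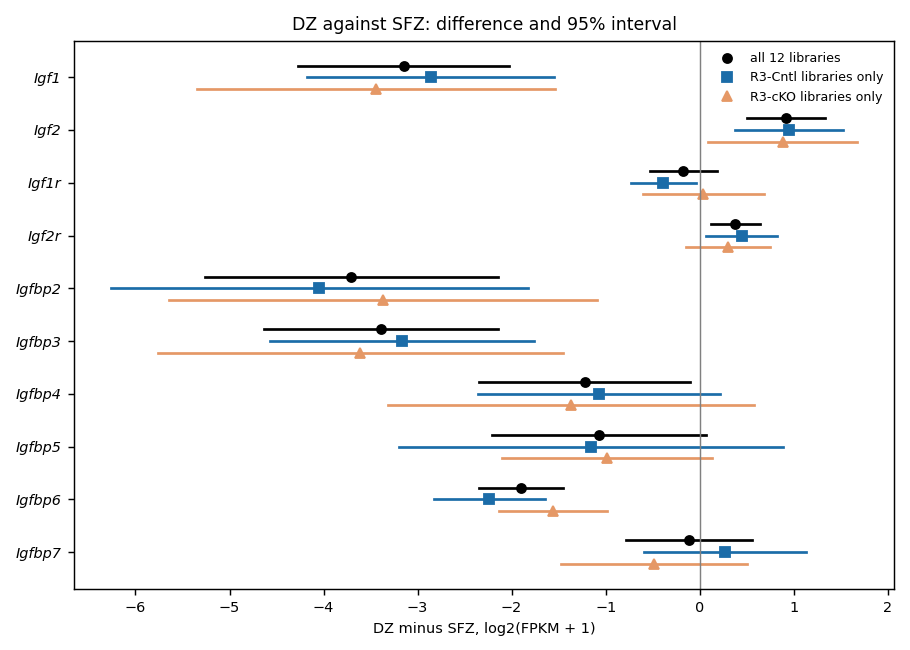
Difference between DZ and SFZ cells for each member on the log2(FPKM + 1) scale, with 95% intervals from limma, for all 12 libraries and for the 6 libraries of each genotype. Igf2 and Igf2r lie above 0 and Igf1, Igfbp2, Igfbp3 and Igfbp6 lie below 0 in all 3 fits, and the intervals of Igf1, Igf2, Igfbp2, Igfbp3 and Igfbp6 exclude 0 in each.

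Within each genotype the 6 called members kept their direction, but with 3 libraries against 3 few genes were called. In R3-Cntl alone 140 of all genes were called (1.24%) and 1 member was among them, Igfbp6 (adjusted p = 0.0389 in limma). In R3-cKO alone, without a block, 2 genes (0.0176%) and 0 members were called, and Igfbp6 had an adjusted p of 0.0995. R3-cKO libraries of the same number deviated together in the 2 zones (correlations of 0.418 to 0.781), and with the number as a block, a fit added after seeing the data, 352 genes (3.11%) and 2 members, Igfbp2 (adjusted p = 0.0350) and Igfbp6 (0.0363), were called in limma. The log2 difference of Igf2 was 0.95 in R3-Cntl and 0.88 in R3-cKO, that of Igf1 −2.86 and −3.44, that of Igfbp2 −4.04 and −3.37, and that of Igfbp3 −3.16 and −3.61.

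The scaling between libraries shifted all genes, which bears on how directions are read. With quantile normalization the median log2 difference of all genes was 0.04 and 1238 genes were called higher and 864 lower, and with median-of-ratios size factors it was 0.00 with 1053 higher and 1088 lower. The log2 difference of Igf2 was 0.64 and 1.08 under these scalings, and the directions of all 6 called members were kept under both.

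The composition of the binding proteins differed between the zones in the shares of Igfbp2 and Igfbp3. Summed over the 6 genes, binding protein FPKM ranged from 959 to 2513 with a median of 1530 in SFZ libraries, and from 350 to 1642 with a median of 656 in DZ libraries, so that the ranges overlapped. Igfbp5 made up 41.6 to 61.0% of the sum in SFZ and 19.1 to 59.1% in DZ libraries. Igfbp2 made up 3.72 to 14.7% in SFZ and 0.369 to 2.17% in DZ, and Igfbp3 0.551 to 4.58% and 0.0542 to 0.296%, without overlap. The shares of Igfbp4 (14.3 to 37.0% in SFZ and 16.9 to 27.5% in DZ) and Igfbp6 (0.967 to 3.64% and 0.408 to 2.63%) overlapped. Igfbp7 held 7.31 to 20.4% of the sum in SFZ and 17.1 to 52.0% in DZ, the highest share being that of R3-Cntl DZ library 1, where Igfbp5 was low. The level of Igf2 was 0.601 to 2.59 times the summed binding proteins in SFZ and 2.92 to 13.7 times in DZ libraries. These shares describe transcripts and not proteins, and were not tested.

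**Figure D3:**
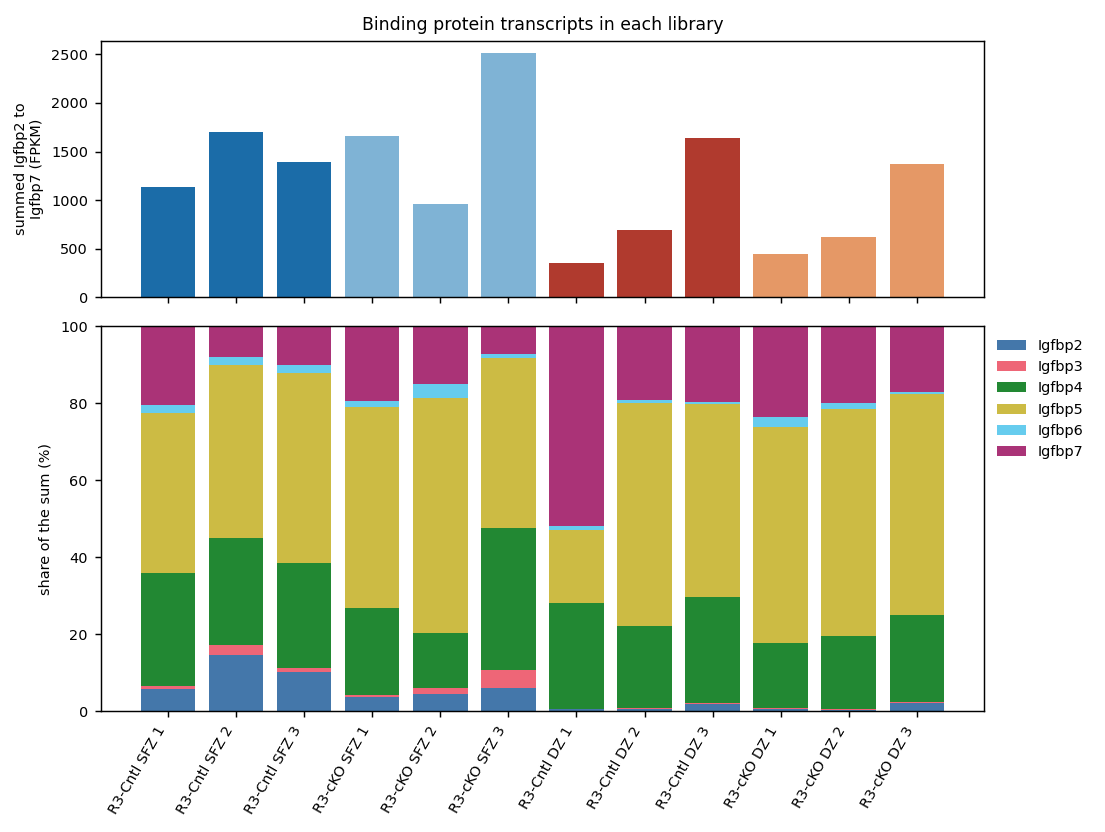
Upper panel, summed FPKM of Igfbp2 to Igfbp7 in each library. Lower panel, the share of that sum taken by each gene in percent. Igfbp5 takes the largest share in all libraries but R3-Cntl DZ library 1, where Igfbp7 holds 52.0%, and Igfbp2 takes at most 2.17% in DZ libraries.

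Markers of cell types moved with the zones as well. Of 10 chondrocyte markers 10 were called higher in DZ cells, against 4.3% of all genes tested. Their summed level was 5242 to 15470 FPKM in SFZ and 16200 to 36070 in DZ libraries. These sums rest largely on Col2a1, which alone was at 3048.74 to 9229.04 FPKM in SFZ and 11247.95 to 22790.57 in DZ libraries. Of 13 tendon and fibroblast markers 11 were tested and 10 were lower in DZ cells, against 18.9% of all genes tested. Their sums were 2409 to 6641 FPKM in SFZ and 346.6 to 1808 in DZ libraries. Tnmd, a tendon gene, was at 14.08 FPKM or more in SFZ libraries and at 1.14 or less in DZ libraries, where its lowest value was 0. The remaining tested marker, Dcn, which encodes the proteoglycan decorin, was not called and its difference had the opposite sign (log2 difference 1.19, adjusted p = 0.0507 in limma). Osteoblast markers, a list that shares Col1a1 with the previous one, summed to 1871 to 4816 FPKM in SFZ and 41.02 to 982.9 in DZ libraries. Col1a1 alone was at 1849.22 to 4793.07 FPKM in SFZ and 24.4 to 960.9 in DZ libraries. The osteoblast sums therefore rest largely on Col1a1, as does much of the previous list's sums in SFZ cells. Of 4 tested, 3 were lower in DZ cells, against 18.9% of all genes tested. Sp7 was not called and had the opposite sign (log2 difference 0.24, adjusted p = 0.3645 in limma). Macrophage markers summed to 8.59 to 201.6 FPKM in SFZ and 3.98 to 27.62 in DZ libraries. Most of these genes were near or under 1 FPKM in DZ cells and passed the filter through SFZ libraries, which fixes their direction, so no count of calls is given for this list. Tendon and fibroblast markers that are low in DZ cells, such as Tnmd, passed it in the same way, so their count of 10 is not independent of the filter. The superficial zone list had 2 of 8 lower in DZ cells, Thbs4 and Vcam1, against 18.9% of all genes tested. Its sums were 192.7 to 322.4 FPKM in SFZ and 79.27 to 157.4 in DZ libraries. The other 6 were not called. Of these, Prg4 (log2 difference −1.32, adjusted p = 0.0576 in limma), Cd44, Clu, Erg and Tgfbr2 (−0.07) had the same sign. Gdf5 had the opposite sign (0.89, adjusted p = 0.0596 in limma). Thbs4 was at 36.71 FPKM or more in SFZ and at 2.49 or less in DZ libraries. Vcam1, at 1.03 FPKM or less in DZ cells, passed the filter through SFZ libraries, so its direction is not independent of the filter.

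The other lists were low or did not separate the zones. Endothelial markers summed to at most 8.97 FPKM, Cdh5 being at 1.21 or less in SFZ and at 0.01 or less in DZ libraries, and erythroid markers to at most 0.25. Skeletal muscle markers summed to 176.1 FPKM in R3-Cntl SFZ library 2 and to at most 20.55 in the other 11 libraries. Without that library 5 of the 10 members were called between zones, the call of Igf2r being lost. In bulk RNA, fewer cells of a type and less RNA per cell cannot be told apart.

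Marker levels also moved with some members among libraries of the same zone. In SFZ cells R3-Cntl library 2 and R3-cKO library 3 had the lowest chondrocyte sums (5242 and 6034 FPKM) and the highest tendon and fibroblast sums (5076 and 6641). These 2 libraries held the lowest Igf2 and the highest Igf1, Igfbp2, Igfbp3 and Igfbp4 of the 6. In DZ cells library 3 of R3-Cntl and of R3-cKO had the highest tendon and fibroblast sums (1808 and 1523) and the highest Igfbp2, Igfbp4, Igfbp5 and Igfbp7. Igf2 did not follow the SFZ pattern in DZ cells: R3-cKO DZ library 3 held the highest Igf2 of the 12 libraries (5198.51 FPKM). For Igf1 and Igfbp3 the DZ libraries numbered 3 differed. R3-Cntl DZ library 3 held the highest Igfbp3 of the DZ libraries (1.85 FPKM). Its Igf1 (0.98) was below only that of R3-cKO DZ library 2 (1.14). R3-cKO DZ library 3 held a low Igf1 (0.37) and an Igfbp3 of 1.35, below that of R3-cKO DZ library 2 (1.83). The part of these marker differences in the zone differences of the members was not tested.

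**Figure D4:**
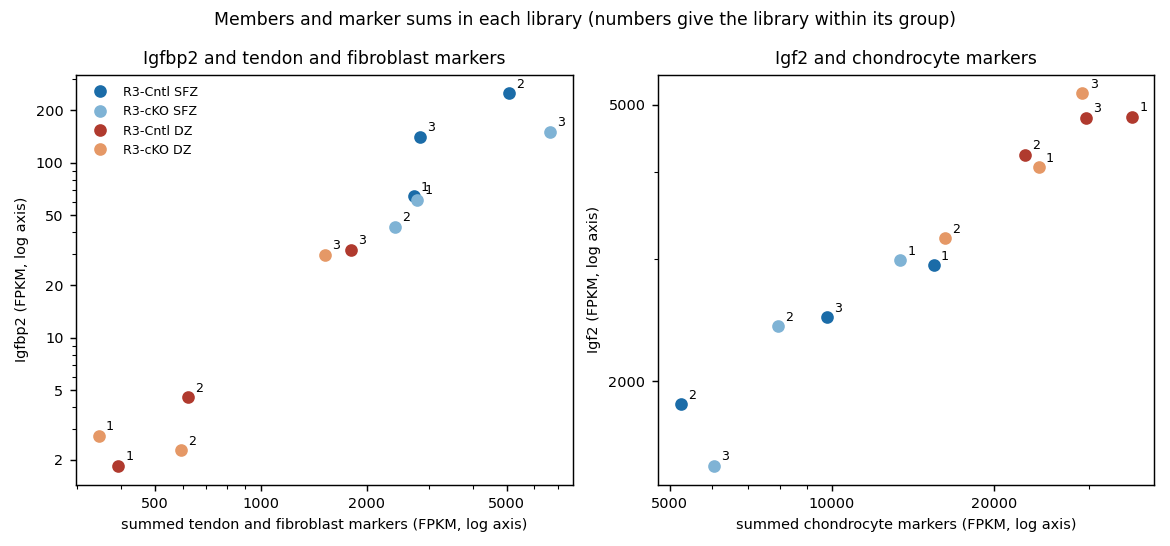
Left, Igfbp2 against the summed tendon and fibroblast markers, and right, Igf2 against the summed chondrocyte markers, in FPKM on log axes. Each point is a library, coloured by group and numbered within it. The lowest Igf2 levels (1510.24 and 1854.56) are in the libraries with chondrocyte sums of 6034 and 5242, and the lowest 4 values of Igfbp2 are in the DZ libraries with tendon and fibroblast sums of 620.4 or less.

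The genes around the members were followed with 62 genes in lists of other ligands and receptors, binding protein proteases, adaptors, PI3K and Akt, mTOR, FoxO factors, the growth hormone axis and regulators of Igf2. Of these, 59 were present and 52 were tested. Between zones 11 were called, 3 higher and 8 lower in DZ cells, a share close to that of all genes (23.2%). Their median log2 difference was −0.08 against −0.14 for all genes. The insulin receptor gene Insr, which can pair with the product of Igf1r, was at 4.61 to 7.75 FPKM in SFZ and 5.34 to 7.12 in DZ cells. The insulin gene Ins2 was at 0.43 FPKM or less in all libraries. Of the adaptors, Irs1 was at 15.95 to 21.28 FPKM in SFZ and 18.60 to 30.07 in DZ cells, and Irs2 at 3.20 to 6.04 and 3.46 to 4.84.

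The called genes with the largest differences included regulators of binding protein cleavage. Stc1, whose product inhibits PAPP-A, was at 2.04 to 7.33 FPKM in SFZ and 0.14 to 1.10 in DZ cells, a log2 difference of −1.67 ± 0.24 (SE, adjusted p = 0.00139 in limma). Pappa2, a protease of IGFBP-3 and IGFBP-5, was at 1.20 to 5.57 and 0.02 to 1.44 FPKM, a log2 difference of −1.45 ± 0.29 (adjusted p = 0.00618 in limma). Pappa itself was at 3.85 to 11.16 FPKM in SFZ and 4.74 to 23.34 in DZ cells and was not called. Stc2, a second inhibitor of PAPP-A with higher levels than Stc1, was at 12.24 to 39.60 FPKM in SFZ and 22.22 to 76.66 in DZ cells and was not called (log2 difference 0.88 ± 0.32, adjusted p = 0.0684 in limma). Stc1 and Pappa2 passed the filter on low values through the SFZ libraries, where they were high, so the direction of their calls is not independent of the filter.

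Inside the cell the called genes were spread over several steps. Plagl1, an imprinted zinc finger factor, was at 103.32 to 207.37 FPKM in SFZ and 286.44 to 338.80 in DZ cells (log2 difference 1.10 ± 0.15, adjusted p = 0.00129 in limma). Deptor, an inhibitor of mTOR, was at 4.67 to 7.83 and 9.75 to 15.57 FPKM (1.03 ± 0.13, adjusted p = 0.000815 in limma), and Foxo4, a target of Akt, was also higher in DZ cells (0.67). The adaptor gene Shc1 (−0.55) and the PI3K subunit gene Pik3r3 (−0.79) were lower in DZ cells, but Pik3r3 was not called with quantile normalization (adjusted p = 0.0952) or median-of-ratios size factors (0.0609).

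The second comparison set libraries labelled R3-cKO against R3-Cntl within each zone, a contrast that the study designed to address Runx3 deletion. In SFZ cells 0 of the 10 members and 0 of 11537 genes (0.0%) were called at an adjusted p under 0.05 in limma, and 0 members and 34 genes (0.295%) had an unadjusted p under 0.05. In DZ cells 9 members were tested, Igf1 being too low, and 0 of them and 0 of 11091 genes (0.0%) were called, while 0 members and 404 genes (3.64%) had an unadjusted p under 0.05. The 2 genotypes overlapped in every member in both zones, against 2.4% of genes without overlap in SFZ and 8.03% in DZ cells. An exact permutation test of 3 against 3 cannot give p below 0.1, and for the members it gave 0.2 to 1.

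The intervals were wide for several genes, so that the data do not exclude sizeable differences. In SFZ cells the log2 difference (R3-cKO minus R3-Cntl) was −0.10 for Igf2 with a 95% interval of −0.89 to 0.68, and 0.66 for Igf1 with an interval of −1.60 to 2.92. It was −0.83 for Igfbp2 (−2.36 to 0.70) and 0.52 for Igfbp3 (−1.93 to 2.98). The values of Igf1 and Igfbp3 rested on R3-cKO library 3, without which they were −0.14 and −0.54. That of Igfbp2 ran from −1.34 without R3-cKO library 3 or without R3-Cntl library 1 to −0.37 without R3-Cntl library 2. The most precise were Igfbp6 at −0.08 (−0.51 to 0.36), Igf2r at 0.16 (−0.28 to 0.60) and Igf1r at −0.15 (−0.73 to 0.43).

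In DZ cells the log2 difference was −0.17 for Igf2 (95% interval −0.73 to 0.38, with −0.0018 without R3-cKO library 2 and −0.35 without R3-cKO library 3) and 0.01 for Igf2r (−0.37 to 0.40). Igfbp6 had the lowest p of the tested members, with a log2 difference of 0.60 (−0.10 to 1.30, unadjusted p = 0.0813 in limma), and its R3-Cntl library 1 (3.45 FPKM) was the lowest of the 6. Without that library the difference was 0.33. Igfbp5, at 0.56 (−1.65 to 2.78), turned to −0.47 without R3-Cntl library 1. Igfbp2 stood at −0.15 (−2.93 to 2.63). These intervals are from the fit without a block.

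DZ libraries of the same number deviated together in the 2 genotypes, so the difference was also fitted with the number as a block. With the block 0 members and 0 genes were called at the adjusted threshold, while 3 members and 1830 genes (16.5%) had an unadjusted p under 0.05. These members were Igfbp4 (log2 difference −0.41, unadjusted p = 0.00393, adjusted p = 0.174), Igfbp7 (−0.45, unadjusted p = 0.0241, adjusted p = 0.251) and Igf1r (0.27, unadjusted p = 0.0373, adjusted p = 0.281), all in limma. The intervals of several members were narrower with the block, such as −0.72 to 0.42 for Igfbp2, −0.50 to 1.62 for Igfbp5, −0.20 to 0.23 for Igf2r and −0.70 to 0.35 for Igf2, and that of Igfbp6 was −0.17 to 1.37. Igfbp4 and Igfbp7 were lower in R3-cKO than in R3-Cntl in 3 of 3 numbered pairs, and Igf1r was higher in 3 of 3.

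**Figure D5:**
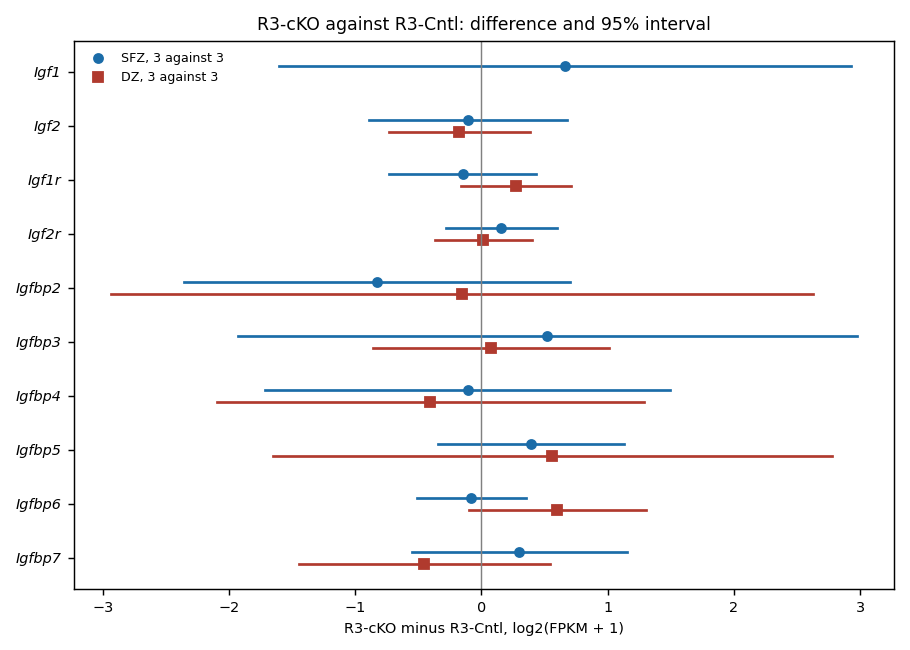
Difference between libraries labelled R3-cKO and R3-Cntl for each member on the log2(FPKM + 1) scale, with 95% intervals from limma without a block, in SFZ cells (circles) and DZ cells (squares). Every interval includes 0, the widest being those of Igf1 and Igfbp3 in SFZ and Igfbp2 and Igfbp5 in DZ cells, and Igf1 was not tested in DZ cells.

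Whether a genotype difference depended on the zone was tested as an interaction over 11765 genes. Of the members 0 were called, as were 0 of all genes (0.0%), and 0 members and 99 genes (0.841%) had an unadjusted p under 0.05 in limma. The interaction was −0.75 on the log2 scale for Igfbp7 (−1.10 to −0.40 on leaving out single libraries), 0.68 for Igfbp6 (0.41 to 0.88) and 0.68 for Igfbp2 (−0.37 to 1.69, so that its sign turned). Of the surrounding genes 0 of 52 tested in SFZ cells and 0 of 50 tested in DZ cells were called between genotypes, and only Pappa in DZ cells had an unadjusted p under 0.05 (log2 difference 0.93 ± 0.35 (SE), unadjusted p = 0.0355, adjusted p = 0.999 in limma, or 0.306 with the block).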

How the data were processed

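RNA-seq values of 12 libraries (4 groups of 3) were analysed. The authors made 100-base paired-end reads and mapped them to mm9, and the submitters' processing notes name Bowtie 0.12.2. The authors deposited 1 value per gene and library, taken here as FPKM after a TMM scaling by the authors. The unit was inferred from the values, and the methods of the study name quantile normalization and a log2 scale of counts instead. Values are not counts, so count tests were not run, and depth and counting error are unknown. All columns were matched to a sample (0 left over).

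Genes that reached 1 FPKM in 3 or more libraries of a comparison were tested as log2(FPKM + 1) with limma 3.58.1 in R 4.3.3, with a mean-variance trend, two-sided, and Benjamini-Hochberg adjustment over all genes tested. The zone fit had zone and genotype as terms, genotype was the only term within a zone, and the interaction used the 4 groups. For each member the log2 values were permuted between groups as well (exact, two-sided). Other steps used Python 3.11.15. The code was tested on simulated data. As alternatives the filter was dropped or raised to a mean of 10 FPKM, the pseudocount was set to 0.1 or 5, libraries were rescaled by quantiles or by size factors from median ratios, the replicate number served as a block, each genotype was fitted alone, 12 libraries shared a single model, and every library was left out once.

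All 10 members are named. Of the surrounding genes, up to 8 called between zones by size of difference and up to 5 with unadjusted p under 0.05 between genotypes are named, with marker genes and others (Insr, Ins2, Irs1, Irs2, Pappa, Stc2 in the zones) where their levels were wanted. A gene that this rule names is not reported here. The members and lists were chosen with earlier results of these data known. The study names individual littermate mice as the source. The labels give no batch and do not say what a number shares. After removal of group means, DZ libraries of the same number correlated at 0.653 to 0.781 between genotypes and other DZ pairs at −0.68 to −0.051, so the numbers were taken as pairs in that comparison. In SFZ cells the same-number correlations were −0.415 to 0.787, and between zones −0.151 to 0.575 in R3-Cntl and 0.418 to 0.781 in R3-cKO, so between zones the numbers were taken as pairs in R3-cKO alone. P-values measure the spread between these libraries. The other assays of the study were not analysed here. Names and positions came from the deposited values and GENCODE on mm9.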

Additional observations from a re-analysis of the deposited data

Results flagged for a closer look

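Igfbp3 stood far from the other libraries of its zone in 1 sample. R3-cKO SFZ library 3 held 115.03 FPKM, against 8.69 to 41.64 in the other 5 SFZ libraries. On the FPKM scale this gap takes up a larger part of the range than Dixon's criterion allows for 6 values. That criterion was not applied to the log2 values that the tests use. The criterion was applied to 20 sets of 6 FPKM values (10 genes in 2 zones, with both genotypes in a set). It is passed by chance in about 1 of 20 sets of normally distributed values, a form that FPKM need not have. The same library also had the highest Igf1, Igfbp4 and Igfbp5 of the SFZ libraries and the highest tendon and fibroblast markers (6641 FPKM). Without it, the zone difference of Igfbp3 was −2.89 on the log2 scale, against −3.39 with it.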

How the results depend on the processing

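Between zones, 5 to 6 of the 10 members were called on leaving out each library in turn, against 6 with all libraries, 4 were called with no filter and 5 with a mean of 10 FPKM, where Igf1 was not tested, and the 6 kept their direction in every alternative that tested them. With R3-Cntl libraries alone 1 member and 140 genes were called, with R3-cKO libraries alone 0 and 2, and with R3-cKO libraries alone and the replicate block 2 and 352, with 6 libraries in place of 12. A filter on a mean of 10 FPKM left 1162 genes called, of fewer tested, and leaving out a library gave 1624 (without R3-Cntl SFZ library 2) to 2899. The call of Igf2 was lost with no filter (adjusted p = 0.0715). The difference of Igf1r turned to 0.021 with quantile normalization and to 0.037 in R3-cKO alone (with or without the block), and that of Igfbp7 to 0.052 with median-of-ratios size factors and 0.27 in R3-Cntl alone (−0.31 to 0.076 over single libraries left out). Causes were not tested.

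Genes with an unadjusted p under 0.05 between genotypes numbered 34 in SFZ cells, 143 with no filter, 15 with the mean filter, 54 with quantile normalization and 12 (without R3-cKO library 3) to 1204 (without R3-cKO library 2) over single libraries. In DZ cells the number was 404, then 696 with no filter, 184 with the mean filter, and 211 (without R3-cKO library 2) to 773 (without R3-cKO library 3). For the interaction it was 99, 252, 41 and 36 (without R3-Cntl SFZ library 2) to 714 (without R3-cKO SFZ library 2). In DZ cells 1 member (Igfbp6) had such a p in a single model of 12 libraries, and 0 to 2 over single libraries, as did 0 to 1 in the interaction. Members and genes called at the adjusted threshold between genotypes or in the interaction stayed at 0.

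Single libraries turned these genotype differences. In SFZ cells the ranges were −0.14 to 1.51 for Igf1, −0.32 to 0.17 for Igf2, −0.37 to 0.071 for Igf1r, −0.54 to 1.22 for Igfbp3, −0.78 to 0.59 for Igfbp4, −0.23 to 0.019 for Igfbp6 and −0.025 to 0.55 for Igfbp7. In DZ cells they were −0.12 to 0.10 for Igf2r (−0.040 with quantile normalization, −0.034 with median-of-ratios size factors), −1.20 to 0.86 for Igfbp2, −0.32 to 0.31 for Igfbp3 (−0.046 with quantile normalization), −0.98 to 0.23 for Igfbp4 and −0.47 to 1.34 for Igfbp5. In the interaction they were −1.43 to 0.22 for Igf1, −0.34 to 0.15 for Igf2 (0.12 with quantile normalization), −0.37 to 1.69 for Igfbp2, −1.14 to 0.61 for Igfbp3, −0.995 to 0.38 for Igfbp4 and −0.86 to 0.94 for Igfbp5.

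With the replicate block, the zone comparison called 3965 genes, the call of Igf2r was lost (adjusted p = 0.0503) and Igfbp4 was called (0.0282). In DZ cells the block gave 3 members and 1830 genes with an unadjusted p under 0.05, in SFZ cells 51 genes and in the interaction 2 members (Igf1r and Igfbp6) and 949 genes. It changed no other call of a member. Libraries that share only a number need not share a mouse. Depth is unknown, so values near 0.1 FPKM, such as Igf1 in DZ cells, have no counting error attached.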
